A study of Mus musculus with 6 samples.

Results

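The neighbouring H19-Igf2 and Kcnq1 imprinted domains of mouse chromosome 7 were examined for DNA methylation in the hypothalamus of 16 week old offspring. The 8 genes of interest were H19, Igf2 and Ins2 in the first domain and Ascl2, Kcnq1, Kcnq1ot1, Cdkn1c and Phlda2 in the second. Members were all array probes, controls left out, lying in 2 windows of the mm9 build, chr7:149700000-149900000 for the first domain and chr7:150110000-150760000 for the second. The windows held 374 of the 174638 probes of the array, 257 and 117 of them. All 374 fell into runs, meaning 3 or more probes with no more than 500 bp between one start and the next, 8 runs in the first window and 12 in the second. These were numbered H1 to H8 and K1 to K12 in order of rising coordinate.

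Two-colour arrays compared methylated DNA, enriched with an antibody (MeDIP, labelled with Cy5), with the unenriched input DNA of each sample (Cy3). There were 3 arrays from offspring of dams treated with the plant fibre inulin, and 3 from offspring labelled as maternal obesity, whose labels also name a maternal high fat diet. The labels do not say whether the inulin dams were also obese or fed a high fat diet, nor do they give the strain, sex or litter of the offspring, so p-values measure only the spread between these samples. The tissue label could not be checked against marker genes, because the arrays measure DNA only.

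In an imprinted domain, certain genes are expressed in certain tissues from only the maternal or only the paternal chromosome. Methylation laid down in the germ line marks which chromosome is which. Between H19, a maternally expressed non-coding RNA, and Igf2, a paternally expressed growth factor, lies a control region that is methylated on the paternal copy and bound by the insulator protein CTCF on the maternal copy. In the second domain the promoter of Kcnq1ot1, a non-coding RNA made from the paternal copy inside Kcnq1, is methylated on the maternal copy, and the RNA silences neighbouring genes on the paternal copy. Those neighbours include Cdkn1c, an inhibitor of cyclin-dependent kinases, Phlda2, which restrains placental growth, Ascl2, a transcription factor of the placenta, and Kcnq1, a potassium channel. Ins2 encodes an insulin precursor. In the brain, Igf2 is made mainly by the choroid plexus and the meninges. The arrays measure DNA only, so whether these genes are imprinted in the hypothalamus was not tested.

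No column of the arrays ties a probe to a gene, and no annotation of the mm9 build was used here, so probes and runs are given by position and genes only by window. In the gene annotation of another build, GRCm38.p6, the first window's genes follow in the order H19, Igf2, Ins2, with the microRNA genes Mir675 and Mir483 and the non-coding genes Gm33148 and Igf2os among them. The second follow in the order Ascl2, Kcnq1, Kcnq1ot1, Cdkn1c, Phlda2, with the protein-coding genes Tspan32, Cd81, Tssc4, Trpm5 and Slc22a18 among them. No call can therefore be counted for a single gene.

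Methylation in mammals sits mainly on the cytosine of CpG, and MeDIP recovers DNA that holds methylated CpGs. The promoters below are therefore shown with every CpG in capitals. RefSeq promoters (GRCm38.p6, 250 bases before to 50 after a start) were at hand for 4 of the 8 genes, Igf2 with 4 starts. All lie on the minus strand, and their positions are not those of the mm9 probes. The first shown is that of Kcnq1ot1 (chr7:143296498-143296797), a gene known for a maternally methylated promoter, and the others belong to a gene of the first domain and to genes that Kcnq1ot1 silences. The CpG-richest of Igf2 lies at chr7:142658755-142659054, that of Phlda2 at chr7:143502475-143502774 and that of Ascl2 at chr7:142969215-142969514.
Kcnq1ot1: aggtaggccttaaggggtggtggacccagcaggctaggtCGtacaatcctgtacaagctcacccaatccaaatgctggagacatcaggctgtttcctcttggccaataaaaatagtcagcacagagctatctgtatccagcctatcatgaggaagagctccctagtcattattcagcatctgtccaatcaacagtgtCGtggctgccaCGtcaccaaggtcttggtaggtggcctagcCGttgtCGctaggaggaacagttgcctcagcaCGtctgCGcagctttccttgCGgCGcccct
Igf2: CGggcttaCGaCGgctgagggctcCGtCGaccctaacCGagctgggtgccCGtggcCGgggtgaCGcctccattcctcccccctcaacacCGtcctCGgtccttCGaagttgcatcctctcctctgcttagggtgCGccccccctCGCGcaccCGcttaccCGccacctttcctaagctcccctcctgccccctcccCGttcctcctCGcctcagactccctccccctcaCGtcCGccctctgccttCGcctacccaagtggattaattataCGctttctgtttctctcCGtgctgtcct
Phlda2: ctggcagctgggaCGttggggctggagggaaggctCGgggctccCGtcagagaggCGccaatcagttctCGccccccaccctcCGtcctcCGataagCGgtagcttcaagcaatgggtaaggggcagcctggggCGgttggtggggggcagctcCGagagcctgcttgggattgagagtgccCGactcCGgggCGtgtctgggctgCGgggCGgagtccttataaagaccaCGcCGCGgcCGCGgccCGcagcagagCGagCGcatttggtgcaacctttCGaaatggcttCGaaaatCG
Ascl2: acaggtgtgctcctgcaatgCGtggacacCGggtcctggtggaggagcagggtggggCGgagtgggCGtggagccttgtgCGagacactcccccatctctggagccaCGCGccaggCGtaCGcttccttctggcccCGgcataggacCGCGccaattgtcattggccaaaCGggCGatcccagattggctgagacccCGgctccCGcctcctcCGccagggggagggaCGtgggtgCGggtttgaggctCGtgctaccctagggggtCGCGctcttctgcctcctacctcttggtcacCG
The Kcnq1ot1 promoter held 9 CpGs, a number reached by 45.8% of the 32851 promoters of the same length, whose median was 7. The Phlda2 promoter held 26, reached by 16.9%, and the Ascl2 promoter 23, reached by 21.5%. The 4 Igf2 promoters ranged widely, with 2, 7, 14 and 24 CpGs. The letters CCAAT, the box read by the factor NF-Y, occurred 3 times on either strand in the Kcnq1ot1 promoter and 3 times in that of Ascl2, against at least 1 in 37.4% and at least 3 in 3.37% of all promoters. These are counts of letters only.

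Both domains stood above the middle of the array in their MeDIP over input ratio. The ratio is given throughout as log2 of MeDIP over input with the median of each array set to 0, so a positive value means more enriched than the middle probe of that array. The CpG content of the runs was not known, so ratios of different runs cannot be read as methylation levels. Averaged over the 6 arrays, 15 of the 20 runs lay above 0, against 46.2% of all 22574 runs. The median run stood at 0.41 in the first window and 0.36 in the second, against -0.055 for all runs, and 10 of the 20 were among the 25.0% of highest ratio on the array. Per array, the median of the 20 runs was 0.35, 0.37 and 0.39 on inulin arrays and 0.40, 0.37 and 0.40 on obesity arrays, so the groups overlapped. Probes in the windows were shorter than elsewhere, 47.3 bp on average against 49.2 bp, and the MeDIP signal was well above background at 87.7% of their spots against 79.8%. The windows parted in both channels on the centred log2 scale. In the input signal the median run was 0.193 in the first window and -0.303 in the second, against 0.049 for all runs. In the MeDIP signal it was 0.67 in the first window and 0.048 in the second, against 0.057 for all runs. The higher median ratio of the second window thus went with a dimmer input and not with a brighter MeDIP signal. Over the 374 probes the ratio was weakly related to probe length (Pearson's r = -0.24, a description across probes that share arrays).

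In the H19-Igf2 window most runs lay close together. Of its runs, 7 of 8 stood between 0.28 and 0.57, and H7 at -0.074. The highest was H5 (chr7:149842941-149844298, 6 probes), with ratios of 0.48, 0.52 and 0.54 on inulin arrays and 0.60, 0.76 and 0.53 on obesity arrays. Close to it was H8 (chr7:149865127-149866593, 8 probes), with 0.47, 0.54 and 0.46 on inulin arrays and 0.47, 0.74 and 0.58 on obesity arrays. In both runs obesity array 2 was the highest of the 6, and the groups overlapped. The lowest, H7 (chr7:149846445-149848010, 8 probes), had -0.13, -0.035 and -0.26 on inulin arrays and -0.11, 0.19 and -0.096 on obesity arrays. H7 lay next to H6, at 0.53, and held longer probes, 50.8 bp on average, with MeDIP signal above background at 64.6% of spots.

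The rest of the first window lay between these levels. H1 (chr7:149717724-149719420, 9 probes) varied widely between arrays, with 0.25, 0.19 and 0.52 on inulin arrays and 0.37, 0.055 and 0.48 on obesity arrays. Its probe Ch_220697_0148761, above background in neither channel on any array, read 0.66, 0.71 and 1.89 on inulin arrays and 0.97, 0.82 and 2.13 on obesity arrays. Ch_220697_0148758 and Ch_220697_0148759, below 0 wherever measured, were left out as outlier spots on inulin array 3. H3 (chr7:149758752-149765213, 30 probes) had 0.58, 0.62 and 0.38 on inulin arrays and 0.47, 0.60 and 0.36 on obesity arrays. H6 (chr7:149844830-149845885, 5 probes) had 0.40, 0.47 and 0.53 on inulin arrays and 0.63, 0.68 and 0.48 on obesity arrays. At all 3 the groups overlapped.

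In the Kcnq1 window the runs spread over a wider range. K9 (chr7:150646464-150648230, 8 probes) was the highest run of both windows, at the 98.5th percentile of all runs. Its ratios were 0.97, 0.89 and 0.93 on inulin arrays and 0.99, 1.08 and 1.0 on obesity arrays, and both channels were above background at every spot. K11 (chr7:150687941-150689661, 8 probes) followed at the 95.9th percentile, with 0.70, 0.81 and 0.60 on inulin arrays and 0.90, 0.86 and 0.86 on obesity arrays. The input signal of K11 was above background at only 70.8% of spots and the MeDIP signal at 54.2%, which limits its ratio. The lowest runs were K5 (chr7:150280052-150281803, 9 probes) and K10 (chr7:150658374-150661227, 14 probes). K5 had -0.33, -0.44 and -0.47 on inulin arrays and -0.48, -0.44 and -0.44 on obesity arrays. K10 had 0.032, -0.089 and -0.33 on inulin arrays and -0.32, -0.35 and -0.40 on obesity arrays. Thus the most enriched run, K9, and one of the least enriched, K10, were neighbours along the chromosome.

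The other runs of the Kcnq1 window filled the range between. K7 (chr7:150481965-150483711, 9 probes), above background in both channels at every spot, had 0.74, 0.62 and 0.43 on inulin arrays and 0.43, 0.63 and 0.21 on obesity arrays. K6 (chr7:150291995-150293546, 8 probes) had 0.54, 0.49 and 0.45 on inulin arrays and 0.55, 0.48 and 0.44 on obesity arrays, nearly the same set of values. K3 (chr7:150237356-150240837, 16 probes) had 0.30, 0.35 and 0.44 on inulin arrays and 0.46, 0.49 and 0.48 on obesity arrays, the inulin arrays lying below without overlap. K1 and K8 stood near 0, at -0.046 and -0.13 over the 6 arrays. K12 (chr7:150734234-150736137, 8 probes) had 0.26, 0.31 and 0.39 on inulin arrays and 0.37, -0.012 and 0.48 on obesity arrays, with obesity array 2 apart from the other five. Its probes ranged more widely than those of any other run, with mean ratios from -2.74 to 2.30. The lowest of them, Ch_220697_0149135, had a MeDIP signal above background on no array, which limits its ratio.

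Single probes within a run differed far more than the runs did. Among the 301 member probes above background in both channels on all arrays, the highest in the first window was Ch_220697_0148942 in H4 (chr7:149796643-149796687). It read 2.91, 3.06 and 2.64 on inulin arrays and 2.92, 2.62 and 2.37 on obesity arrays. Ch_220697_0148989 in H5 averaged 2.17 and Ch_220697_0148804 in H4 (chr7:149766197-149766245) 1.95 over the 6 arrays. The lowest there were Ch_220697_0148764 in H2, at -1.65, and Ch_220697_0149000 and Ch_220697_0149001 in H7, at -1.31 and -1.16. In the second window Ch_220697_0149131 in K12 averaged 2.30, and Ch_220697_0149121 and Ch_220697_0149122 in K11 2.08 and 2.01. The lowest were Ch_220697_0149089 in K7 (-1.15), Ch_220697_0149039 in K3 (-0.87) and Ch_220697_0149069 in K5 (-0.86). Over all member probes the ratio profile correlated at 0.87 to 0.95 between arrays of a group and at 0.81 to 0.92 between arrays of different groups.

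The first comparison asked whether maternal inulin treatment, set against maternal obesity, went with a different ratio at these runs. None of the 20 runs passed (limma, two-sided, Benjamini-Hochberg adjustment over all runs, threshold 0.05), against 7.42% of all 22574 runs, and 3 had an unadjusted p under 0.05, against 28.6% of all runs. Differences, inulin minus obesity on the log2 scale, ran from -0.23 to 0.23, with 11 above and 9 below 0. Their median was -0.043 in the first window and 0.039 in the second, against 0.033 for all runs. With arrays put on an equal scale these medians were 0.053 and 0.092, against 0.017, and 15 differences lay above 0. A narrower ratio distribution on inulin arrays (interquartile range 1.37 to 1.39) than on obesity arrays (1.62 to 1.89) goes with these signs, and its part in them was not tested. The groups did not overlap at 6 of the 20 runs, 2 with inulin above (10% of the 20, against 20.8% of all runs) and 4 below (20%, against 14.2%), in all 30% against 35.0%. A p that misses the threshold does not show that the runs were alike.

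The run nearest to the threshold was K4 (chr7:150253979-150255659, 9 probes). It read 0.35, 0.41 and 0.35 on inulin arrays and 0.59, 0.60 and 0.62 on obesity arrays, so every inulin array lay below every obesity array. The difference was -0.23 (SE 0.066, limma adjusted p = 0.0647). With each channel centred on its own, the MeDIP signal differed by -0.13 and the input signal by 0.12. On an equal scale it was -0.12. K4 passed with loess normalization (limma adjusted p = 0.0421), with outlier spots kept (adjusted p = 0.0499) and with a robust prior (adjusted p = 0.0491). It did not pass on an equal scale (limma adjusted p = 0.291), after quantile normalization (0.206) or in the authors' deposited table (0.461). Nor did it pass with scan as a random block (limma adjusted p = 0.223), with probe medians (0.404) or without any single array (0.0653 to 0.194). K11 had the other large negative difference of its window, -0.17 (SE 0.077, limma adjusted p = 0.179), which was 0.0055 on an equal scale, and it passed with loess (adjusted p = 0.0498).

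The largest positive differences in the Kcnq1 window were those of K10 and K2, an order that depended on the scaling. K10 averaged -0.13 ± 0.18 on inulin arrays and -0.35 ± 0.041 on obesity arrays (SD, n = 3 each; limma difference 0.23, adjusted p = 0.162). K2 (chr7:150189653-150191889, 11 probes) had 0.25, 0.15 and 0.13 on inulin arrays and 0.019, -0.073 and 0.033 on obesity arrays (limma difference 0.18, adjusted p = 0.140). The groups did not overlap at K2 and overlapped at K10, where inulin array 3 lay among the obesity arrays. With the median of the probes as run value K10 differed by -0.014. K7 had a difference of 0.17 (SE 0.12, limma adjusted p = 0.370), with the groups overlapping. K7 had the largest positive difference of the window on an equal scale, 0.30, against 0.20 at K2 and 0.17 at K10.

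In the H19-Igf2 window no run came near the threshold, with adjusted p of 0.303 or more by limma. The long run H4 (chr7:149765780-149806238, 182 probes over 40459 bp) had the largest positive difference, 0.12 (SE 0.074, adjusted p = 0.323). Its ratios were 0.40, 0.38 and 0.24 on inulin arrays and 0.24, 0.25 and 0.18 on obesity arrays. H2 (chr7:149744030-149745734, 9 probes) had 0.35, 0.32 and 0.33 on inulin arrays and 0.29, 0.23 and 0.23 on obesity arrays, without overlap (limma difference 0.086, adjusted p = 0.425). At H2 both channels were brighter on inulin arrays, by 0.39 for MeDIP and 0.33 for input. However, its probe Ch_220697_0148766 was left out as an outlier spot on every inulin array but array 3. On obesity arrays that probe averaged -0.66 in ratio, -2.42 in MeDIP and -1.84 in input. The H2 means of the groups, in ratio and in each channel, therefore rest on different probes. With outlier spots kept the H2 difference was 0.025. It turned to -0.0090 with normexp, -0.015 with loess and -0.015 over probes above background in both channels. The largest negative differences were -0.14 at H7 and -0.13 at H6, with the groups overlapping at both. The H7 difference was -0.039 without obesity array 2. That of H6 was -0.012 on an equal scale and 0.043 on the unknown scale of the authors' deposited table.

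With each channel tested alone, 0 of the 20 runs passed in the MeDIP signal and 0 in the input signal (limma), against 0.253% and 2.14% of all runs, and 2 in each had an unadjusted p under 0.05, against 21.0% and 24.4% of all runs. Over the 20 runs the ratio difference was related to the MeDIP difference (Pearson's r = 0.64 across runs, which share arrays) and hardly to the input difference (-0.089). The ratio is made from both channels, so some relation to each is built in, and these values do not show where a difference comes from. The ratio difference was also related to the level of the run (-0.52), as over all runs of the array (-0.51). On an equal scale the relation to the level was 0.11.

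At single probes the comparison gave 19 calls among the 357 member probes tested (5.32%; limma with Benjamini-Hochberg adjustment over all 170019 probes), against 8.21% of all probes. Of these, 13 were higher and 6 lower in the inulin group, against 5.12% and 3.08% of all probes. An unadjusted p under 0.05 was found at 89 of the 357, against 30.1% of all probes. The groups did not overlap at 122 (34.2%), against 38.7%. On an equal scale 9 were higher and 1 lower, 10 in all, against 1.72%, 1.83% and 3.55% of all probes. The first window held 9 higher and 2 lower calls among 247 probes tested, the second 4 and 4 among 110. The first held 9 higher and 0 lower on an equal scale, the second 0 and 1. The MeDIP signal of 12 of the 19 was above background on all arrays and that of 4 on none. The MeDIP signal differed by more than the input signal at 12. Among all member probes tested, 32 passed in the MeDIP signal alone (8.96%), against 10.6% of all probes, and 40 in the input signal alone (11.2%), against 13.7%.

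The arrays were scanned in 3 groups that follow the design, the inulin arrays together, obesity arrays 1 and 3 together and obesity array 2 alone. No scan held both groups, so no value within a scan can be had. With scan as a random block (limma, estimated correlation 0.35 over probes and 0.29 over runs) 0 member probes and 0 member runs passed, and 0.159% of all probes. The number of called member probes fell to 1, 0 and 1 when inulin array 1, 2 or 3 was left out. It was 6, 25 and 7 when obesity array 1, 2 or 3 was. Each such fit had fewer arrays, and its share of all probes called is not given here. These counts therefore do not set the members apart from the rest of the array.

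Of the 19 called probes, 10 lay in H4, which held 182 of the 374 member probes, so this number went with its size. Over the whole array 8.21% of probes were called. Of the 10, 5 lay at the far end of H4, all higher in the inulin group. This end was singled out after the values were seen, and the run was divided into stretches of 5 kb for description only. In the first 7 stretches the mean ratio differed between the groups by -0.040 to 0.13. In the last (chr7:149800861-149806238, 25 probes) it was 0.97 ± 0.13 on inulin arrays and 0.47 ± 0.25 on obesity arrays (SD, n = 3 each), a difference of 0.50. Per array it read 1.05, 1.04 and 0.81 on inulin arrays and 0.50, 0.71 and 0.20 on obesity arrays, without overlap. The difference lay above 0 at 24 of its 25 probes, while the median difference over all probes of the array was -0.0020. In each other stretch it lay above 0 at 10 to 13 of 18 to 23 probes tested. At 14 of the 25 every inulin array lay above every obesity array, against 19.5% of all probes. The 25 probes share the same arrays and were picked together, so these counts are not independent observations.

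The far end had the highest mean ratio of the 8 stretches on inulin arrays, 0.97, while on obesity arrays its 0.47 was below the 0.52 of the stretch before it. It held the longest probes, 52.4 bp on average against 45.8 to 47.9 bp in the other stretches. The part of probe length in the difference was not tested. In the MeDIP channel the stretch was brighter on inulin arrays by 0.44, and in the input channel it differed by -0.044. The mean difference was 0.68 on an equal scale, 0.32 with normexp background correction, where the groups overlapped, and 0.53 on the unknown scale of the authors' deposited table. It was 0.37 without obesity array 3, the lowest of the 6, and 0.46 to 0.62 without any other single array.

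Within that stretch the profile dipped at 3 neighbouring probes, where the obesity arrays read below 0. Ch_220697_0148968 (chr7:149802967-149803024) read 0.60, 0.47 and 0.21 on inulin arrays and -1.16, -1.02 and -2.14 on obesity arrays. The difference of 1.87 (SE 0.29, limma adjusted p = 0.0199) was the largest of all member probes tested. Its MeDIP signal was 1.78, 1.44 and 1.01 on inulin arrays and -0.20, -0.028 and -1.26 on obesity arrays (limma difference 1.91, adjusted p = 0.0186). Its input signal differed by 0.060 (limma adjusted p = 0.799).

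The next probe, Ch_220697_0148969 (chr7:149803174-149803222), read 0.42, 0.12 and -0.20 on inulin arrays and -1.38, -1.13 and -1.45 on obesity arrays. The difference was 1.43 (SE 0.18, limma adjusted p = 0.0127), the lowest adjusted p of all member probes, with 1.85 in the MeDIP and 0.43 in the input signal (limma adjusted p = 0.00817 and 0.0760). On the other side, Ch_220697_0148967 (chr7:149802646-149802705) read 0.57, 0.35 and 0.089 on inulin arrays and -0.61, -0.31 and -0.80 on obesity arrays (limma difference 0.91, SE 0.18, adjusted p = 0.0316). In all 3 every inulin array lay above every obesity array, and both channels were above background on all arrays. Over the whole array there were 95 stretches of 3 or more neighbouring probes called higher in inulin and 12 called lower, and this was the only one in the windows.

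These probes kept their calls under several other scalings. On an equal scale the 3 differences were 0.91, 1.79 and 1.33 (limma adjusted p = 0.0472, 0.0305 and 0.0287, in order of coordinate). In the authors' deposited table, on its own scale, all 3 passed as well (limma adjusted p = 0.0262, 0.0136 and 0.0185). After quantile normalization Ch_220697_0148967 did not pass (limma adjusted p = 0.0516). With scan as a random block none passed (limma adjusted p = 0.167, 0.125 and 0.0893). Without inulin array 2 none passed (limma adjusted p = 0.113, 0.0802 and 0.0617), and Ch_220697_0148968 was lost without any single inulin array (0.0541 to 0.0802). The call of Ch_220697_0148967 was lost without any single inulin array (0.0570 to 0.113) and also without obesity array 1 (0.0748) or 3 (0.0651). Their differences stayed above 0 in every fit made.

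The other 2 called probes of the far end were the first and the last probe of the stretch, with uncalled probes between each of them and the dip. Ch_220697_0148959 (chr7:149800861-149800920) read 1.08, 1.16 and 1.0 on inulin arrays and 0.43, 0.57 and 0.31 on obesity arrays (limma difference 0.64, SE 0.12, adjusted p = 0.0289). Its MeDIP signals overlapped between the groups, and the input signal differed by -0.35. Ch_220697_0148983 (chr7:149806182-149806238), the last probe of the run, read 1.23, 1.31 and 1.06 on inulin arrays and 0.49, 0.65 and 0.17 on obesity arrays (limma difference 0.76, SE 0.15, adjusted p = 0.0332). There too the MeDIP signals overlapped, and the input differed by -0.34. Each of these probes passed under 12 of 18 alternatives.

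The probes with the lowest p among those lower in the inulin group lay apart from each other. Ch_220697_0149060 in K4 (chr7:150254999-150255043) read 0.32, 0.32 and 0.22 on inulin arrays and 1.07, 0.94 and 1.16 on obesity arrays (limma difference -0.77, SE 0.11, adjusted p = 0.0180). On inulin arrays its MeDIP signal was brighter by 0.28 and its input signal by 1.06, so the lower ratio came with a brighter input. Tested on the authors' deposited table it did not pass (limma adjusted p = 0.291), nor with scan as a random block (0.112) or without any single inulin array (0.0581 to 0.0795).

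Ch_220697_0149066 in K5 (chr7:150280530-150280574) read 0.95, 0.75 and 0.94 on inulin arrays and 1.60, 1.86 and 1.48 on obesity arrays (limma difference -0.77, SE 0.14, adjusted p = 0.0267). Here the MeDIP signal differed by -0.81 and the input signal by -0.021. Ch_220697_0148943 in H4 (chr7:149797039-149797083), next to the most enriched probe of the window, read 0.44, 0.53 and 0.75 on inulin arrays and 1.28, 1.37 and 1.14 on obesity arrays (limma difference -0.69, SE 0.13, adjusted p = 0.0296). Its MeDIP signal differed by -0.63 and its input by 0.081. On an equal scale both differences kept their sign, at -0.48 and -0.49, without passing, and neither passed when the authors' deposited table was tested (limma adjusted p = 0.0782 and 0.196).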

How the data were processed

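DNA methylation was measured on 6 two-colour Agilent tiling arrays, 3 per group, grouped by the sample titles. Per the file headers, the authors scanned them and used Feature Extraction 11.0.1.1 with the protocol ChIP_1100_Jul11, and positions are in mm9. The processed signals are intensity values, background-subtracted and dye-scaled, per the file headers. The deposited log10 ratio (red over green) equalled that of the processed signals within 1e-04 at 98.5% to 99.6% of probes. The authors' deposited table holds a score per probe whose log base, scale and centring are unknown. Its correlation with the log2 ratio was 0.87 to 0.91 per array, and its medians per array were 0.061, 0.057 and 0.043 (inulin) and 0.056, 0.054 and 0.054 (obesity).

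From the deposited intensities, log2 of red over green was taken, outlier spots were left out, and each array was centred on its median. The spots left out were 20, 14 and 14 of the member probes on inulin arrays and 10, 9 and 7 on obesity arrays. Some values therefore rest on 2 arrays of a group, and run means of the groups can rest on different probes. A run's value is the mean of its probes. The test was limma (version 3.58.1, R 4.3.3) over all probes or runs measured on 2 or more arrays per group, which left 357 of 374 member probes. The fit was tested on simulated data. Runs and probes given in full were those of highest and lowest ratio, of largest difference and of lowest p. The members, lists and tests were chosen with earlier results of these data known. The number of arrays limits the precision. Alternatives are given at the end.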

Additional observations from a re-analysis of the deposited data

How the results depend on the processing

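The number of member runs past the threshold in the ratio, 0, was also 0 with normexp, quantile normalization, equal scale, the filter on input signal, a gap of 1000 bp, scan as a random block, probe medians and the authors' deposited table, and without each array in turn. It was 2 with loess (K4 and K11) and 1 with outlier spots kept, with a robust prior and at a threshold of 0.1 (K4 in each). It was 1 over probes above background in both channels (K12, -0.28, against 0.042 over all its probes) and 1 with gaps of 300 bp (chr7:149800452-149800920, 3 probes, 0.45). Without a call, 6 of the 20 differences changed sign on an equal scale, 6 with the authors' deposited table, 5 with normexp and 5 over probes above background in both channels. The number of called member probes, 19, was 44 with normexp, 30 with loess, 52 at a threshold of 0.1, 10 on an equal scale, 8 after quantile normalization, 0 with scan as a random block, and 0 to 25 without single arrays. Among these alternatives, the share of all probes called is given above only for the equal scale and for scan as a random block. The other counts therefore do not set the members apart from the array. No member run passed in the MeDIP or the input channel under any alternative run.

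The median run difference of the H19-Igf2 window, -0.043, was -0.053 with normexp, -0.061 with loess, -0.023 with the filter on input signal, -0.060 with the filter on both channels, -0.054 with outlier spots kept, -0.026 with probe medians, and -0.079 to -0.033 without single arrays. It was above 0 after quantile normalization (0.031), on an equal scale (0.053), with the authors' deposited values (0.023) and with gaps of 300 and 1000 bp (0.061 and 0.019). That of the Kcnq1 window, 0.039, was -0.011 with loess, -0.049 with the filter on both channels and -0.056 with probe medians. The causes were not tested.

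Deviations of arrays with the same replicate number correlated at -0.14, 0.28 and 0.33 over all runs. With no correlation of differently numbered arrays beside them, these values do not show whether the numbers pair the samples. With the replicate number as a block, 24 member probes and 0 member runs passed. The alternatives for the far end of H4 were chosen after seeing the data.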
